A study of Mus musculus with 12 samples.

Results

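The genes described here are 10 members of the EGF receptor family and its ligands: the receptors Egfr, Erbb2 and Erbb3, and the ligands Areg, Ereg, Hbegf, Epgn, Btc, Tgfa and Nrg1. They were picked by gene name from a count table of 55421 genes, and each name matched 1 row. All 10 passed the filter on low counts, which left 18108 genes for testing. Epgn, with 1 to 24 reads in a library, was the sparsest of them.

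EGF family ligands are made as proteins spanning the plasma membrane and are released by cell surface proteases of the ADAM family. Areg (amphiregulin), Tgfa (transforming growth factor alpha) and Epgn (epigen) bind the receptor Egfr, whereas Hbegf (heparin-binding EGF-like growth factor), Btc (betacellulin) and Ereg (epiregulin) bind both Egfr and Erbb4. Nrg1 (neuregulin) binds Erbb3 and Erbb4. Erbb2 binds none of these ligands and acts as the partner of the other receptors, and Erbb3 has very weak kinase activity of its own but couples strongly to PI3 kinase. In squamous epithelium and its carcinomas the family drives proliferation and wound repair, largely through the ERK pathway.

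The cells were MOC2, an established mouse oral squamous cell carcinoma line, in a pair of derivatives. The titles name MOC2-25 cells as EV-proficient and MOC2-27 cells as EV-deficient, where EV stands for extracellular vesicle. According to the design text, vesicle release was blocked genetically; the altered gene is not named in the sources used here, so its loss was not checked. Each derivative was treated for 48 h with paclitaxel at 600 nM, a drug that stabilises microtubules and was given to make the cells senescent, or carries DMSO as its treatment label, as the control. There were 3 libraries per group. Every group therefore carried its label through 1 derivative line, so that a property of the line and one of vesicle release cannot be told apart. All 4 groups grew in the same rich medium, with fetal bovine serum, insulin, hydrocortisone, cholera toxin, transferrin, tri-iodo-thyronine and EGF itself, so a ligand of Egfr was supplied throughout. The series set out to learn what senescent tumour cells signal with and without their vesicles.

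The 12 libraries held 23263472 to 62955757 counted reads. At that depth a count of 0 allows up to 3 reads, which is 0.0492 to 0.121 counts-per-million (CPM). Summed levels of 7 epithelial markers ran from 3017 to 5486 CPM. They lay at 4871 to 5486 CPM in the DMSO libraries and at 3017 to 3699 CPM in the paclitaxel libraries, and their part in the results below was not tested. Krt8, Krt18, Krt14, Epcam and Cdh1 carried that sum, while the basal squamous markers Krt5 and Trp63 never passed 8 and 11 reads. Epcam went against the sum, with group means of 407.1 CPM in EV-proficient DMSO and 815.5 in EV-proficient paclitaxel, and of 438.7 in EV-deficient DMSO and 534.7 in EV-deficient paclitaxel libraries, where the last 2 groups overlapped. Summed fibroblast markers were at 1.46 to 3.49 CPM in the DMSO and 5.58 to 8.31 CPM in the paclitaxel libraries, and leukocyte markers at 7.38 to 21.6 and 26.4 to 46.9 CPM, the latter mostly from Cd68 and Csf1r. Of the leukocyte genes, Ptprc had 13 to 60 reads in a library, Itgam 0 to 12, and Cd3e and Adgre1 4 or fewer. The 3 that were tested, Ptprc, Csf1r and Cd68, were called higher with paclitaxel in EV-proficient libraries by edgeR's test; in EV-deficient libraries Cd68 was higher, Csf1r was lower and Ptprc missed the threshold. Endothelial markers were at 1.77 to 2.60 CPM in the DMSO and 2.75 to 4.34 CPM in the paclitaxel libraries. Mitochondrial transcripts took 0.550% to 0.729% of counts in the DMSO and 0.846% to 1.45% in the paclitaxel libraries. What part these play in the paclitaxel results was not tested.

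A point on the labels comes before the results. The table has a row for an added sequence called dngfr, whose level was 5.72 to 12.2 CPM in the libraries labelled EV-proficient DMSO and 1.89 to 2.54 CPM in those labelled EV-deficient DMSO. Under paclitaxel the order was the opposite: 2.47 to 3.76 CPM in the libraries labelled EV-proficient and 9.62 to 12.4 CPM in those labelled EV-deficient. The second principal component of all tested genes, with 16.4% of the variance, crossed in the same way, with the EV-proficient DMSO libraries at 27.2 to 36.5 and the EV-deficient paclitaxel libraries at 34.2 to 43.5, against -24.7 to -20.5 and -64.6 to -37.9 for the other groups. Whether a label is wrong was not tested, and the labels are used as deposited. The results lead with the paclitaxel effect averaged over both labels, which would keep its value if the EV labels of the groups of a treatment were exchanged. Effects within 1 label and differences between labels rest on the labels.

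Of the 7 ligands, 4 lie next to each other on mouse chromosome 5 (build GRCm38), in the order Epgn (91027464 to 91035215, + strand), Ereg (91074622 to 91093646, + strand), Areg (91139599 to 91148432, + strand) and Btc (91357261 to 91402994, - strand). The gaps between them are 39.4, 46.0 and 208.8 kb. The other members lie apart from this cluster, among them Tgfa on chromosome 6, Erbb3 on chromosome 10 and Egfr and Erbb2 on chromosome 11. Areg and Btc, at either side of the longest gap, moved in opposite directions under paclitaxel, so the 250 bases upstream of each RefSeq gene start (GRCm38.p6) are shown, 5′ to 3′ on the strand of the gene. Capitals mark the cyclic AMP response element TGACGTCA, its core TGACG on either strand (CGTCA when read on the other strand, and part of the full element), and the TATA box TATAAA.
Areg, chr5:91139349-91139598, + strand: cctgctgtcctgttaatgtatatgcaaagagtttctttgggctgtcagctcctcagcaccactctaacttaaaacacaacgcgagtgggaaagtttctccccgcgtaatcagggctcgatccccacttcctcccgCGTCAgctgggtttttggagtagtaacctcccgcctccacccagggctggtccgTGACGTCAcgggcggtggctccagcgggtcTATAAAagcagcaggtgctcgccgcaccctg
Btc, chr5:91402995-91403244, - strand: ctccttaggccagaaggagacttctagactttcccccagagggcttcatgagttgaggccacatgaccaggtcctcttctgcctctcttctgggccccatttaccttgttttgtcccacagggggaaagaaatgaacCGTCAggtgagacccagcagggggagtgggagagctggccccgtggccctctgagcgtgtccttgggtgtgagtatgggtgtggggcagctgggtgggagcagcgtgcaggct

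The Areg window holds the full response element, beginning 61 bases before the gene start, and a TATA box beginning 31 bases before it. A separate core, written CGTCA, begins at -115. The Btc window holds the core alone, also written CGTCA, at -113, and no TATAAA. Searched on both strands over the 250 bases upstream of 32851 RefSeq gene starts, the full element was present in 1.55%, the core in 17.8% and TATAAA in 12.4%. Of the 6 members with a promoter in that table (Areg, Btc, Epgn, Tgfa, Egfr and Erbb2), Areg alone had the full element, and none had the AP-1 letters TGANTCA, which 6.75% of all windows hold. A match of letters is a description and does not show that a factor binds.

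Averaged over both labels, paclitaxel lowered the receptor ligands Areg, Ereg and Nrg1 and raised the receptor Erbb3 and the ligand Btc. All 10 members passed the test, 3 higher and 7 lower; Hbegf, called lower, lay at 0.0011 on the log2 scale when upper-quartile scaling replaced the main scaling. The test was edgeR's quasi-likelihood test with Benjamini-Hochberg adjustment over all tested genes and a threshold of 0.05, as for every adjusted p given here. The drug changed much of the transcriptome: 68.4% of all tested genes were called, 37.1% higher and 31.3% lower, so that being called is common and the sizes say more. The members' median log2 fold change was -0.22, beside 0.07 over all tested genes. In 5 members the 6 DMSO libraries did not overlap with the 6 paclitaxel libraries, as in 36.8% of all tested genes. In bulk RNA, fewer cells that express a gene and less RNA per cell cannot be told apart. No source says that the 3 libraries of a group came from separate cultures, so the p-values measure the spread between these libraries, which may be technical.

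**Figure D1:**
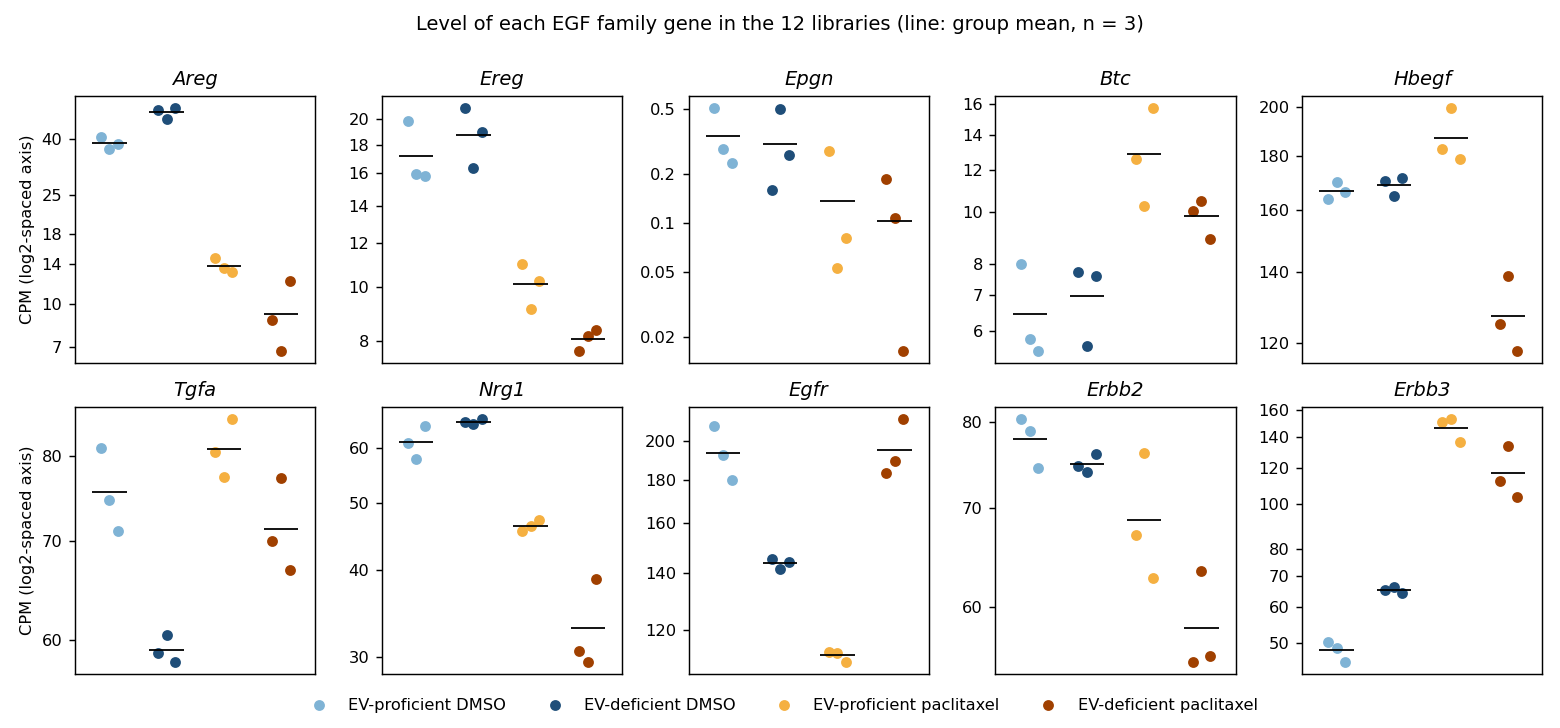
Level of each gene in counts-per-million (log2-spaced axis, own range for each gene) in the 12 libraries; points are libraries, coloured by group, and lines are means of 3. Areg, Ereg and Nrg1 were lower and Btc and Erbb3 higher in every paclitaxel library than in every DMSO library, while Egfr was lowest in the libraries labelled EV-proficient paclitaxel, at 110.0 to 113.0 CPM.

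Areg showed the largest fall among the 10 members. Its level was 40.6, 36.7 and 38.4 CPM in EV-proficient DMSO replicates 1, 2 and 3, and 51.2, 47.5 and 52.0 CPM in EV-deficient DMSO. With paclitaxel it was 14.8, 13.5 and 13.1 CPM in EV-proficient and 8.77, 6.79 and 12.1 CPM in EV-deficient libraries. Every treated library was thus below every control library, and replicate 3 of the EV-deficient paclitaxel group lay highest of its group. The average effect was a log2 fold change of -1.96 ± 0.09 (SE; adjusted p = 7.0e-14), or 0.258 of the control level, and 0.464% of all tested genes fell further. Within the labels the log2 fold changes were -1.48 ± 0.13 (EV-proficient, adjusted p = 3.0e-09) and -2.43 ± 0.13 (EV-deficient, adjusted p = 1.1e-12).

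Ereg, the neighbour of Areg and an activator of the same receptor, fell less. Its level was 19.9, 16.0 and 15.8 CPM in EV-proficient DMSO and 21.0, 16.4 and 19.0 CPM in EV-deficient DMSO libraries. In the treated libraries it stood at 11.0, 9.14 and 10.3 CPM in EV-proficient and 7.69, 8.17 and 8.39 CPM in EV-deficient libraries. The control and treated libraries did not overlap. The average log2 fold change was -0.99 ± 0.08 (adjusted p = 8.2e-10), with -0.77 ± 0.12 in EV-proficient and -1.22 ± 0.12 in EV-deficient libraries (adjusted p = 1.0e-05 and 1.0e-08). Ereg shares 141 exonic bases with Gm19610 on the opposite strand, which had 23 to 60 reads; whether the counting used strand is not given in the sources used here, and over those bases the reads of the pair cannot be told apart.

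Epgn, the first gene of the cluster and a weak, low-affinity ligand of Egfr, was near the limit of detection. It had 8 to 24 reads in the 6 DMSO libraries and 1 to 14 reads in the 6 paclitaxel libraries, and these ranges overlap. Its average log2 fold change came to -1.42 ± 0.55 (adjusted p = 0.026). It missed the threshold within each label (-1.28 ± 0.77 and -1.56 ± 0.77, adjusted p = 0.16 and 0.084), but passed it in EV-proficient libraries without EV-proficient paclitaxel replicate 1 (-2.44, adjusted p = 0.048) and in EV-deficient libraries without EV-deficient paclitaxel replicate 1 (-2.35, adjusted p = 0.042). The average call was lost in 4 fits that left out 1 library, EV-proficient DMSO replicate 1 (-1.23), EV-deficient DMSO replicate 2 (-1.16), EV-proficient paclitaxel replicate 2 (-1.23) or EV-deficient paclitaxel replicate 3 (-1.18).

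Btc, on the opposite strand at the far end of the cluster, went the other way. Its level was 8.01, 5.79 and 5.50 CPM in EV-proficient DMSO and 7.72, 5.61 and 7.61 CPM in EV-deficient DMSO libraries. The paclitaxel libraries held 12.6, 10.3 and 15.7 CPM in EV-proficient and 10.1, 10.5 and 8.93 CPM in EV-deficient libraries. Treated and control libraries were again apart, by a narrow margin between 8.01 and 8.93 CPM. The average log2 fold change was 0.74 ± 0.12 (adjusted p = 9.6e-06). Within the EV-proficient label it was 0.99 ± 0.17 (adjusted p = 3.3e-05). Within the EV-deficient label the rise of 0.49 ± 0.16 (adjusted p = 0.013) was no longer called without EV-deficient DMSO replicate 2 (0.34, adjusted p = 0.10). Of the unnamed genes inside the cluster, Gm19619, between Areg and Btc and with at most 58 reads, had an average log2 fold change of -1.57, and Gm19610 one of 0.02.

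Hbegf, the most abundant ligand under paclitaxel, changed in opposite directions in the libraries of the 2 labels. It was at 163.7, 170.1 and 166.4 CPM in EV-proficient DMSO and 170.5, 165.0 and 171.4 CPM in EV-deficient DMSO libraries, so the controls covered one range. With paclitaxel it was at 182.6, 199.6 and 178.7 CPM in EV-proficient libraries and 125.1, 138.7 and 118.0 CPM in EV-deficient libraries, above and below all controls. The log2 fold change was 0.17 ± 0.06 in EV-proficient (adjusted p = 0.031) and -0.41 ± 0.06 in EV-deficient libraries (adjusted p = 9.4e-06). The second was -0.22 with upper-quartile scaling and stayed called. The first was called in 10 of 20 alternatives, and was 0.06 (adjusted p = 0.46) without EV-proficient paclitaxel replicate 2. The average, -0.12 ± 0.05 (adjusted p = 0.022), was not called with a filter at 1 CPM (-0.08) or with upper-quartile scaling.

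Tgfa, the classical autocrine ligand of Egfr in carcinoma cells, rose slightly on average. Its level ran from 57.9 to 60.5 CPM in EV-deficient DMSO, 66.9 to 77.2 CPM in EV-deficient paclitaxel, 71.1 to 81.0 CPM in EV-proficient DMSO and 77.4 to 84.8 CPM in EV-proficient paclitaxel libraries. Averaged over labels, the log2 fold change was 0.18 ± 0.05 (adjusted p = 0.0020). Within the EV-deficient label it rose by 0.27 ± 0.07 (adjusted p = 0.0015), the ranges were apart, and the rise was called in 20 of 20 alternatives. With upper-quartile scaling it was 0.46, and the average was 0.31. Within the EV-proficient label the difference of 0.10 ± 0.07 missed the threshold (adjusted p = 0.24), and the ranges overlapped. Tgfa shares 118 exonic bases with Gm43917 on the opposite strand, which had 1 to 17 reads, and the limit given for Ereg holds here too.

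Nrg1, the ligand of Erbb3, fell under both labels. It was at 61.0, 57.9 and 64.7 CPM in EV-proficient DMSO and 65.4, 65.0 and 66.1 CPM in EV-deficient DMSO libraries. With paclitaxel it was at 45.6, 46.3 and 47.2 CPM in EV-proficient and 30.7, 29.5 and 38.9 CPM in EV-deficient libraries. No treated library reached a control library. The average log2 fold change was -0.69 ± 0.06 (adjusted p = 9.0e-10), with -0.40 ± 0.08 in EV-proficient and -0.99 ± 0.08 in EV-deficient libraries (adjusted p = 3.1e-04 and 1.2e-09). Nrg1 shares 482 exonic bases with Gm26578 on the opposite strand, which has no row among the deposited counts, and the limit given for Ereg holds here too.

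Erbb3, the receptor for Nrg1, rose most among the 10 members. Its level was 50.4, 49.0 and 45.6 CPM in EV-proficient DMSO and 65.1, 66.1 and 64.4 CPM in EV-deficient DMSO libraries. With paclitaxel it was 150.5, 152.9 and 136.1 CPM in EV-proficient and 112.4, 133.5 and 103.8 CPM in EV-deficient libraries. The lowest treated library was therefore well above the highest control, and the order of the labels under DMSO was turned under paclitaxel. The average log2 fold change was 1.22 ± 0.06 (adjusted p = 4.9e-14), with 1.60 ± 0.08 in EV-proficient and 0.84 ± 0.08 in EV-deficient libraries (adjusted p = 7.6e-13 and 5.4e-09). A larger average rise was seen in 15.6% of all tested genes.

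Egfr, the receptor of most of these ligands, moved in opposite directions within the labels. It was at 208.0, 192.5 and 179.6 CPM in EV-proficient DMSO and 145.1, 141.5 and 144.1 CPM in EV-deficient DMSO libraries. With paclitaxel it was at 113.0, 112.8 and 110.0 CPM in EV-proficient and 183.2, 189.2 and 212.0 CPM in EV-deficient libraries. The libraries labelled EV-proficient DMSO and EV-deficient paclitaxel overlapped, as they did for dngfr. The log2 fold change was -0.79 ± 0.07 in EV-proficient (adjusted p = 1.4e-09) and 0.44 ± 0.06 in EV-deficient libraries (adjusted p = 4.0e-06), and the average was -0.17 ± 0.05 (adjusted p = 0.0021). That average was -0.05 and not called with upper-quartile scaling.

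Erbb2, the shared partner receptor, fell slightly. Its level ran from 74.1 to 80.4 CPM over the 6 DMSO libraries and from 55.1 to 76.2 CPM over the 6 paclitaxel libraries, which overlap through EV-proficient paclitaxel replicate 2. Averaged over labels, its log2 fold change was -0.27 ± 0.05 (adjusted p = 8.8e-05), and within the EV-deficient label it was -0.37 ± 0.07 (adjusted p = 1.7e-04). With upper-quartile scaling these were -0.15 and -0.18, and both stayed called. Within the EV-proficient label the log2 fold change of -0.18 ± 0.07 (adjusted p = 0.044) was called in 9 of 20 alternatives, with adjusted p from 0.0010 to 0.18. It was lost with upper-quartile scaling (-0.12), with limma-voom (-0.17) and without a low-count filter (-0.15), among others, and was -0.32 (adjusted p = 0.0010) without EV-proficient paclitaxel replicate 2. Erbb2 shares 9 exonic bases with Mien1 on the opposite strand, which had 123 to 327 reads, and the limit given for Ereg holds over those bases.

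**Figure D2:**
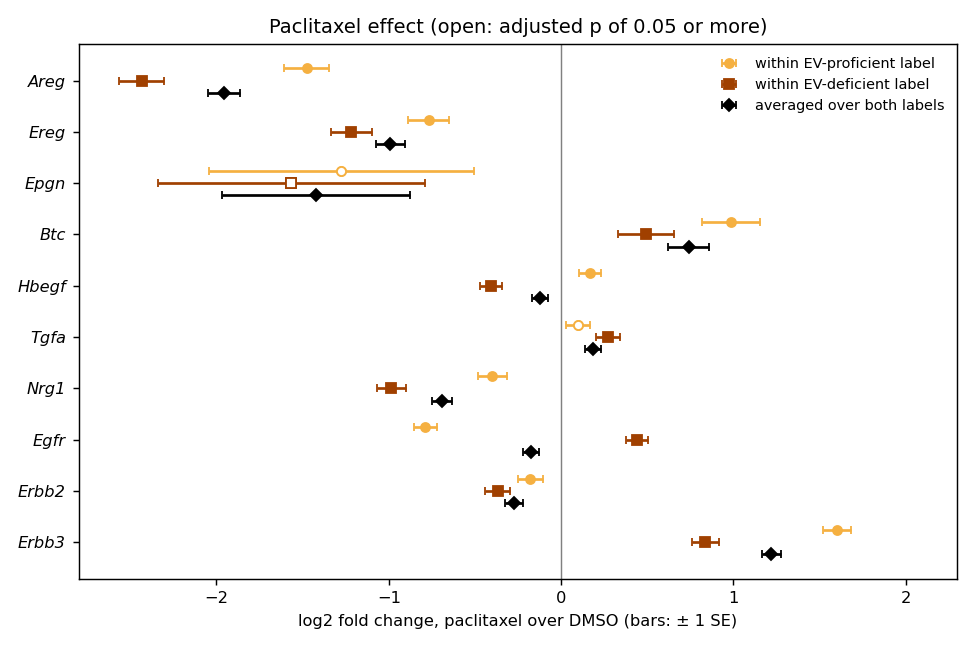
Log2 fold change of each gene, paclitaxel over DMSO, within each EV label and averaged over both; bars are 1 standard error and open symbols have an adjusted p of 0.05 or more. The average ran from -1.96 for Areg to 1.22 for Erbb3; the 2 labels gave opposite signs for Hbegf (0.17 and -0.41) and Egfr (-0.79 and 0.44), and the average for Hbegf was 0.0011 with upper-quartile scaling.

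Within the labels, 8 of 10 members passed the test in EV-proficient libraries, 3 higher and 5 lower, beside 58.2% of all tested genes (31.1% higher, 27.1% lower). The groups did not overlap in 7 members, beside 62.3% of all tested genes. In EV-deficient libraries 9 of 10 passed, 4 higher and 5 lower, beside 62.9% of all tested genes (32.4% higher, 30.5% lower), and the groups did not overlap in 9, beside 68.7%. The share of higher genes among all called genes in the EV-deficient comparison was 51.5%, and 63.4% with upper-quartile scaling. The members' medians of the log2 fold change were -0.29 and -0.39, beside 0.05 and 0.07 over all tested genes.

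To compare genes with each other, CPM was divided by the exonic length in kb. That length covers the exons of all annotated transcripts of a gene together, and the transcripts present in these cells may be shorter. Orders, shares and ratios between genes rest on this choice. On this scale the 6 ligands of Egfr summed to 83.7 ± 2.6 CPM per kb in EV-proficient DMSO and 91.7 ± 3.2 in EV-deficient DMSO (SD, n = 3). With paclitaxel the sum was 67.9 ± 1.0 in EV-proficient and 49.1 ± 1.3 in EV-deficient libraries, below the controls in each case. Areg made up 37.9% ± 1.0 of that sum in EV-proficient DMSO and 16.7% ± 1.0 with paclitaxel, and 45.1% ± 0.66 and 15.5% ± 4.7 in the EV-deficient groups. The share of Hbegf went from 41.3% ± 2.0 to 56.9% ± 2.6 and from 38.1% ± 0.56 to 53.6% ± 3.3. The share of Tgfa went from 13.9% ± 0.54 to 18.4% ± 1.1 and from 9.94% ± 0.57 to 22.4% ± 1.2. On this scale control transcripts were thus split mainly between Areg and Hbegf, and treated ones were mainly Hbegf. Hbegf itself was not raised in EV-deficient libraries. Shares and sums are descriptions and were not tested.

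**Figure D3:**
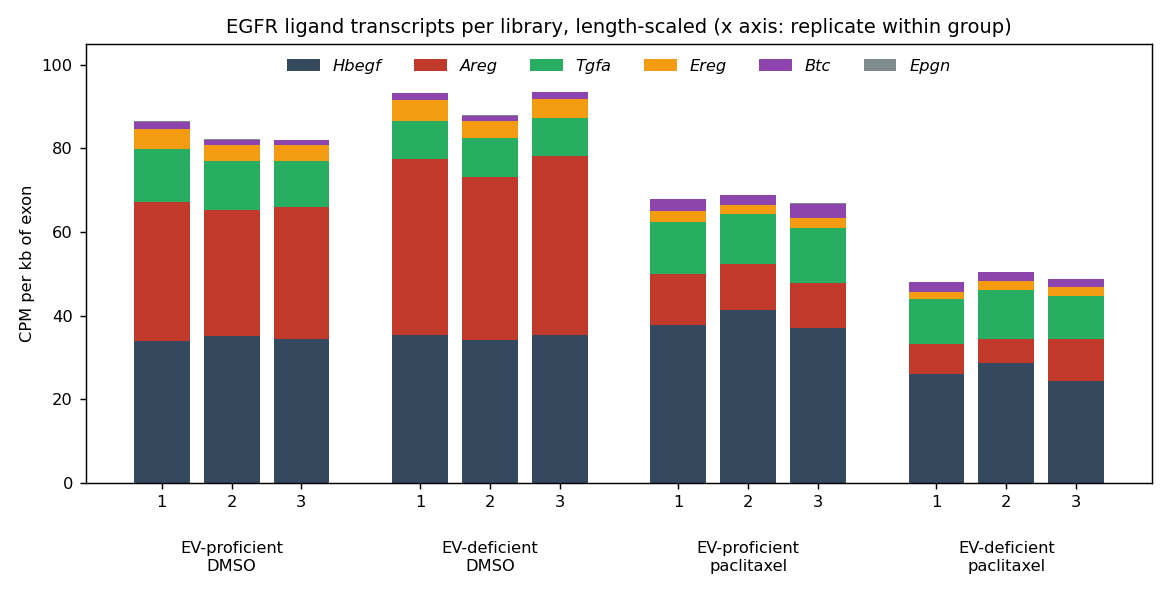
Stacked level of the 6 ligands of Egfr in CPM per kb of exon for each library (x axis: replicate within group). The Areg layer shrank from 30.2 to 42.8 CPM per kb in the DMSO libraries to 5.59 to 12.2 CPM per kb in the paclitaxel libraries.

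The order of the members by level per kb changed with treatment. In EV-proficient DMSO libraries it was Hbegf, Areg, Egfr, Erbb2, Tgfa, Erbb3, Nrg1, Ereg, Btc and Epgn, and in EV-deficient DMSO libraries Areg led Hbegf, Erbb2 led Egfr and Erbb3 led Tgfa. Neighbours in either order had library ranges that did not overlap. With paclitaxel Hbegf led in both labels, with a mean of 38.7 CPM per kb in EV-proficient and 26.3 in EV-deficient libraries, and Erbb3 came next with 24.4 and 19.4. Overlapping neighbours under paclitaxel were Erbb2 with Tgfa and Btc with Ereg in both labels, Tgfa with Areg in EV-proficient libraries, and Erbb3 with Egfr in EV-deficient libraries. Among the receptors, the level of Erbb3 was 0.471 ± 0.013 of that of Egfr in EV-proficient DMSO and 0.855 ± 0.021 in EV-deficient DMSO libraries (SD, n = 3). It was 2.46 ± 0.12 times that of Egfr in EV-proficient paclitaxel libraries and 1.14 ± 0.20 times in EV-deficient paclitaxel libraries. Without division by length, Erbb3 and Egfr had means of 146.5 and 111.9 CPM in EV-proficient paclitaxel libraries. In EV-deficient paclitaxel libraries these means were 116.6 and 194.8 CPM, with Erbb3 below Egfr.

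Between the labels under DMSO, the EV-deficient libraries had more Areg (0.38 ± 0.12 on the log2 scale, adjusted p = 0.027) and Erbb3 (0.43 ± 0.08, adjusted p = 0.00033), and less Egfr (-0.43 ± 0.06, adjusted p = 3.5e-05) and Tgfa (-0.36 ± 0.07, adjusted p = 0.00055). These 4 of 10 members compare with 23.0% of all tested genes called (12.4% higher, 10.6% lower). Ranges did not overlap in 5 members, beside 43.3% of all tested genes. The Areg call was lost in 8 of 12 fits that left out 1 library, with values from 0.34 to 0.38 in those fits: those without EV-proficient DMSO replicate 2 or 3, without EV-deficient DMSO replicate 1 or 3, without any of the EV-proficient paclitaxel libraries or without EV-deficient paclitaxel replicate 1. The threshold was missed by Ereg (0.13 ± 0.12, adjusted p = 0.49), Btc (0.12 ± 0.17, adjusted p = 0.70), Nrg1 (0.10 ± 0.08, adjusted p = 0.44), Hbegf (0.02 ± 0.06, adjusted p = 0.88; -0.0031 with RLE scaling), Erbb2 (-0.06 ± 0.07, adjusted p = 0.65) and Epgn (-0.17 ± 0.71, adjusted p = 0.90). Over the 20 alternatives Ereg ran from 0.04 to 0.25 and Btc from 0.02 to 0.31, and neither was called. The members' median was 0.06, beside 0.04 over all tested genes.

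Under paclitaxel, 8 of 10 members passed the test between the labels, beside 37.8% of all tested genes. EV-deficient libraries had more of 1 member and less of 7, beside 16.0% and 21.8% of all tested genes. Of all called genes, 42.4% were higher in EV-deficient libraries, and 58.2% with upper-quartile scaling. Egfr was higher (0.80 ± 0.07, adjusted p = 6.3e-09). Areg (-0.58 ± 0.13, adjusted p = 0.0017), Hbegf (-0.56 ± 0.06, adjusted p = 8.0e-07), Nrg1 (-0.49 ± 0.08, adjusted p = 1.0e-04) and Erbb3 (-0.33 ± 0.08, adjusted p = 0.0018) were lower in EV-deficient libraries and stayed called in the 20 alternatives. Ereg (-0.32), Erbb2 (-0.25) and Tgfa (-0.18) were called in 11, 16 and 8 of 20 alternatives; with upper-quartile scaling Erbb2 was at -0.15 and Tgfa at -0.08, and Erbb2 at -0.16 without EV-proficient paclitaxel replicate 2. In all, 5 members were called with upper-quartile scaling, with only the 2 groups in the fit, or without EV-deficient paclitaxel replicate 1. Btc (-0.38 ± 0.16, adjusted p = 0.073) missed the threshold and was called in 3 of 20 alternatives, and Epgn (-0.46 ± 0.83, adjusted p = 0.70) missed it too. Ranges did not overlap in 7 members, beside 44.1%. The members' median was -0.35, beside a median of all tested genes that rounds to 0 (-0.0047).

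The difference between labels had opposite signs under the 2 treatments in 7 of 10 members, beside 67.1% of all tested genes. Of the 4 members called under both treatments, 3 had opposite signs (Areg, Egfr and Erbb3), and 2722 of the 2834 genes called under both did so over the whole table. The members' share of 70% was near the background.

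**Figure D4:**
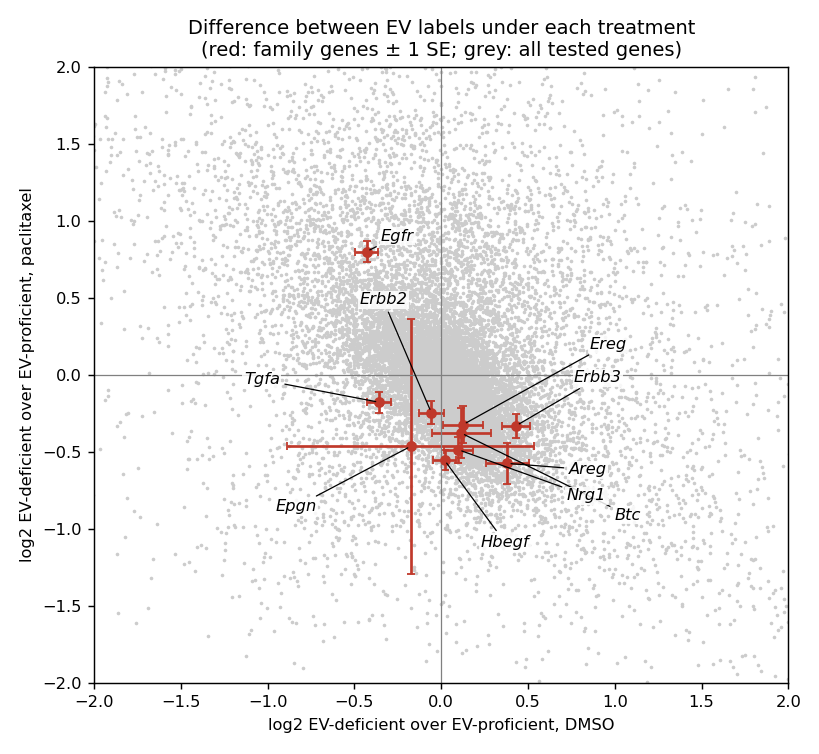
Log2 difference EV-deficient over EV-proficient under DMSO (x axis) and under paclitaxel (y axis); red points are the 10 genes with 1 standard error, grey points all tested genes, and 832 genes lie outside the plotted range. Egfr is alone among the 10 in the upper left, at -0.43 and 0.80, and Areg and Erbb3 lie farthest to the right, at 0.38 and 0.43 under DMSO.

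The interaction, the paclitaxel effect in EV-deficient minus that in EV-proficient libraries, passed the test in 6 of 10 members, 1 higher and 5 lower, beside 40.7% of all tested genes (16.9% higher, 23.8% lower). The interaction rests on the labels. With the EV labels of a treatment exchanged, its size would be that of a sum of label differences, and no difference of paclitaxel effects. Of all called genes 41.4% were higher, and 53.9% with upper-quartile scaling, which moved the median over all tested genes from -0.04 to 0.08. The log2 difference was 1.23 ± 0.09 for Egfr (adjusted p = 7.2e-10), -0.96 ± 0.18 for Areg (adjusted p = 2.0e-04), -0.76 ± 0.11 for Erbb3 (adjusted p = 1.0e-05), -0.59 ± 0.12 for Nrg1 (adjusted p = 3.6e-04) and -0.57 ± 0.09 for Hbegf (adjusted p = 2.6e-05). These 5 were called in the 19 alternatives run. Ereg (-0.45 ± 0.17, adjusted p = 0.036) was called in 7 of 19, with adjusted p up to 0.14. Btc (-0.49 ± 0.24, adjusted p = 0.10), Tgfa (0.18 ± 0.10, adjusted p = 0.16), Erbb2 (-0.19 ± 0.10, adjusted p = 0.16) and Epgn (-0.29 ± 1.07, adjusted p = 0.86) missed the threshold; Btc was called in 3 and Tgfa in 2 of the 19 alternatives. The members' median of -0.47 stood beside -0.04 over all tested genes.

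Of the 5 other family genes, Nrg3 had no read in any library, and Egf and Nrg4, at means of 1.22 CPM or less in each group, missed the threshold of edgeR's test in the 6 comparisons (lowest adjusted p = 0.21 and 0.063). Nrg2, a ligand of Erbb3 and Erbb4, had group means of 4.75 ± 1.0 CPM in EV-proficient DMSO, 7.45 ± 0.57 in EV-deficient DMSO, 6.73 ± 0.29 in EV-proficient paclitaxel and 3.59 ± 0.43 in EV-deficient paclitaxel libraries (SD, n = 3). Under paclitaxel it rose by 0.50 ± 0.16 on the log2 scale in EV-proficient (adjusted p = 0.011) and fell by 1.05 in EV-deficient libraries (adjusted p = 5.8e-06), with an interaction of -1.55 ± 0.23 (adjusted p = 1.0e-05). Erbb4, the remaining receptor, had 0 or 1 read in each DMSO library, 0 to 8 reads in EV-proficient paclitaxel and 12 to 23 reads in EV-deficient paclitaxel libraries. It was called higher under paclitaxel within both labels by edgeR's test (adjusted p = 0.013 in EV-proficient and 7.1e-04 in EV-deficient libraries). EV-proficient DMSO libraries were all at 0, where the floor of 3 reads per library has a mean of 0.0775 CPM. The mean under paclitaxel was 0.0878 CPM, close to that floor and with a library at 0, so no size is given for this rise. In EV-deficient libraries the means were 0.0069 CPM with DMSO and 0.331 CPM with paclitaxel. That is 51 reads against 1 over the 3 libraries of each group, a ratio of 47.4 with an exact binomial 95% interval of 8.14 to 1909 that covers counting error only.

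Genes around the receptors were followed in 4 lists, whose values are from the main fit only. Among 9 genes of ligand release, averaged over labels, 3 rose and 2 fell (median -0.0043), beside 37.1% and 31.3% of all tested genes (median 0.07). The proteases Adam9 (0.45 ± 0.04, adjusted p = 1.0e-08) and Adam10 (0.26 ± 0.05, adjusted p = 1.2e-04) rose and Adam15 fell by 0.43 on the log2 scale (adjusted p = 4.3e-08). Adam8 had the largest interaction of the list, 2.32 ± 0.13 (adjusted p = 4.4e-12), with group means of 151.5 CPM in EV-proficient DMSO, 60.5 in EV-deficient DMSO, 77.9 in EV-proficient paclitaxel and 155.2 in EV-deficient paclitaxel libraries. Next came Adam9 (0.70 ± 0.09, adjusted p = 1.7e-06) and Adam12 (-0.70 ± 0.08, adjusted p = 5.2e-07). Adam17, the main protease for Areg and Tgfa, had -0.26 ± 0.07 in EV-proficient (adjusted p = 0.0023) and 0.25 ± 0.07 in EV-deficient libraries (adjusted p = 0.0025).

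Among 11 receptor adaptors 6 rose and 3 fell on average (median 0.15), beside the same 37.1% and 31.3%. Gab1, the docking protein that links receptors to PI3 kinase, rose by 1.06 ± 0.06 (adjusted p = 2.8e-12), from means of 11.9 and 13.9 CPM to 27.2 and 26.4 CPM. Ptpn11, which encodes the phosphatase SHP2 needed for ERK activation, fell by 0.68 on the log2 scale (adjusted p = 2.3e-12), and the Egfr substrate Eps8 fell by 0.58 (adjusted p = 8.9e-11). The largest called interactions were those of Pik3r1 (0.75), Grb2 (-0.64) and Stat3 (0.59). Among 15 negative regulators 5 rose and 7 fell (median -0.04), beside 37.1% and 31.3%. The transmembrane regulators Lrig3 (0.75 ± 0.07, adjusted p = 1.1e-08) and Lrig2 (0.56 ± 0.07, adjusted p = 1.4e-07) and the ubiquitin ligase Cblc (0.56 ± 0.07, adjusted p = 8.2e-07) rose on average. Lrig3 rose by 1.90 ± 0.11 in EV-proficient and fell by 0.39 in EV-deficient libraries (adjusted p = 5.7e-12 and 0.0022). Its interaction of -2.29 was followed by the called ones of Spry2 (-1.30) and Ptprj (0.71).

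Among 14 genes known to be induced through ERK, 8 rose and 5 fell on average, with a median of 0.32, beside 37.1% and 31.3% of all tested genes and their median of 0.07. Fos (1.38 ± 0.12, adjusted p = 2.0e-09), Egr1 (1.14 ± 0.06, adjusted p = 9.0e-13) and the ERK phosphatase Dusp4 (1.02 ± 0.04, adjusted p = 2.3e-14) rose. The average covers a split between the labels. In EV-proficient libraries 9 rose and 1 fell (median 0.29), beside 31.1% and 27.1% of all tested genes. In EV-deficient libraries 6 rose and 6 fell (median -0.06), beside 32.4% and 30.5%. The interaction was lower for 9 and higher for 1 of the 14 (median -0.46), beside 23.8% lower and 16.9% higher over all tested genes (median -0.04). The lower ones were led by Etv5 (-1.97 ± 0.12, adjusted p = 1.4e-11), Fosl1 (-1.46 ± 0.19, adjusted p = 2.1e-06) and Dusp5 (-1.01 ± 0.09, adjusted p = 2.2e-08). Etv5, for example, had group means of 32.2 CPM in EV-proficient DMSO, 61.7 in EV-deficient DMSO, 101.4 in EV-proficient paclitaxel and 49.7 in EV-deficient paclitaxel libraries. Under paclitaxel 11 of 14 were lower in EV-deficient than in EV-proficient libraries and none was higher by edgeR's test, beside 21.8% and 16.0% of all tested genes.

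**Figure D5:**
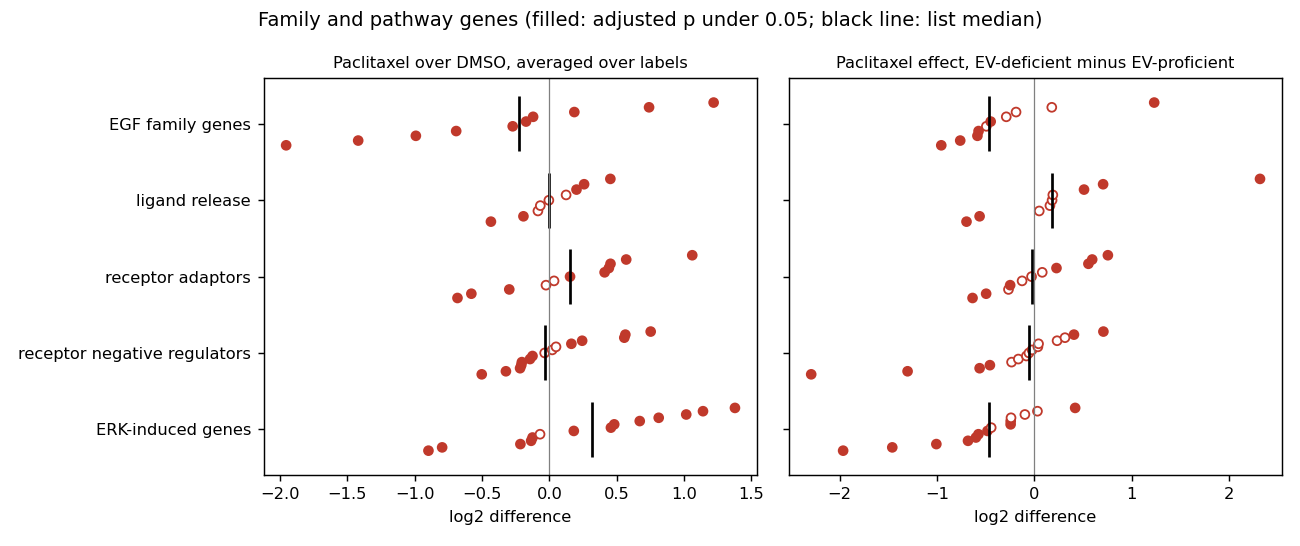
Log2 difference of each tested gene of the family and of the 4 lists, for the paclitaxel effect averaged over labels (left) and for the interaction (right); points are genes, filled where the adjusted p was under 0.05, and black lines are list medians. The ERK-induced genes had a median of 0.32 on the left and -0.46 on the right, where the family median was -0.47.

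The genes with the most similar profile were sought among 9852 tested genes with a mean of at least 5 CPM, by Pearson's r of log2 CPM over the 12 libraries. These correlations describe libraries that share the same treatment split, and no p is given. Closest to Areg were Mrm3 (0.997), Umps (0.995) and Nup205 (0.994). Closest to Erbb3 were Serinc5 (0.996), Vill (0.996) and Ypel3 (0.994), and closest to Egfr were Myo9a (0.988), Kidins220 (0.988) and Itga7 (0.981). Epgn, with its low counts, reached at most 0.857 (Nsmaf), followed by Poglut1 (0.856) and Pcgf3 (0.853).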

How the data were processed

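The data are 12 stranded, poly(A)-selected RNA-seq libraries, 3 per group. The authors deposited 1 table of raw read counts per gene; per the submitters' processing notes, reads were aligned with STAR 2.5.0a to GRCm38. The counting program, annotation release and use of strand are not given in the sources used here. The deposited counts were tested with edgeR 4.0.16 (R 4.3.3), by its quasi-likelihood test with TMM scaling, filterByExpr with a minimum count of 10, 1 mean per group over all 12 libraries and Benjamini-Hochberg adjustment over 18108 genes. Each SE given was worked back from the test, as the absolute log2 fold change over the square root of its F statistic. CPM uses the TMM-scaled library sizes, and exonic lengths and positions are from GENCODE M21. The 2 added rows (gfp, at 0 in all libraries, and dngfr) stayed out of the tests; 0 columns belonged to other samples. No 2 replicates agreed within sampling noise (chi-square per degree of freedom 4.20 to 27.8).

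The tests were checked on simulated counts. Each test was repeated without 1 library at a time, with DESeq2 1.42.0 and with limma-voom (limma 3.58.1). It was also repeated with RLE or upper-quartile scaling, with no filter or one at 1 CPM in 3 libraries, and with a replicate block. The 4 comparisons of a pair of groups were also fitted on those groups alone. From these fits, values were kept for the 10 members, and call counts and medians for all tested genes. Values of the lists, the other family genes and the markers are from the main fit only. The members and lists were chosen with earlier results of these data known. All 10 members are named in every comparison; of each list, at most 3 called genes with the largest average paclitaxel effect and 3 with the largest interaction, and all other family members. Adam17, the marker genes given by name (Krt5, Krt8, Krt14, Krt18, Epcam, Cdh1, Trp63, Cd68, Csf1r, Ptprc, Itgam, Cd3e and Adgre1) and the Gm genes were named after their values were seen. Genes of similar profile were named for the 3 members with the largest called average effect and the 3 with the largest called interaction. Motifs were searched in RefSeq promoter sequences.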

Additional observations from a re-analysis of the deposited data

Results flagged for a closer look

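With the labels as deposited, the paclitaxel effect differed between them for 6 of the 10 genes by edgeR's test of the interaction, EV-deficient minus EV-proficient. The log2 differences were -0.96 for Areg, -0.45 for Ereg, -0.57 for Hbegf, -0.59 for Nrg1, 1.23 for Egfr and -0.76 for Erbb3. The value for Ereg was called in 7 of 19 alternatives, with adjusted p up to 0.14. Over all tested genes 40.7% passed the same test.

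The added sequence dngfr, which none of the comparisons uses, was counted in every library, with 93 reads in the library where it was lowest. No library lacked it, and its group means were 8.99 ± 3.2 CPM in EV-proficient DMSO, 2.14 ± 0.35 in EV-deficient DMSO, 3.24 ± 0.68 in EV-proficient paclitaxel and 10.9 ± 1.4 in EV-deficient paclitaxel libraries (SD, n = 3). What this sequence reports in these cells was not tested.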

How the results depend on the processing

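Over single genes of the family and alternatives, 1072 values kept their direction and side of the threshold, 73 lost a call, 10 gained one and 18 changed sign. The replicate numbers did not pair the libraries: correlations of same-numbered deviations from the group means ran from -0.081 to 0.097 over 18 pairs. With a replicate block the members called stayed at 8, 9, 4, 8, 6 and 10 in the 6 comparisons, and the block changed the count of all genes called in the averaged comparison to 12341 from 12388. Between labels under paclitaxel, 8 members were called, and 5 with upper-quartile scaling or with only the groups compared; the range on leaving out 1 library was 5 to 9. The cause was not tested. Leaving out 1 library gave 6 to 7 members called for paclitaxel in EV-proficient, 8 to 10 in EV-deficient, 3 to 4 between labels under DMSO, 5 to 7 for the interaction and 9 to 10 for the average. Signs changed for Hbegf between labels under DMSO (0.02; -0.0031 with RLE scaling and with DESeq2, -0.0085 with upper-quartile scaling, -0.013 with only the groups compared, -0.021 without any 1 of the 6 paclitaxel libraries; -0.021 to 0.043 over all single libraries left out) and for the average of Hbegf (0.0011 with upper-quartile scaling). They changed for Epgn, never called in these comparisons, between labels under DMSO (-0.70 to 0.23 on leaving out 1 library, 0.23 without EV-proficient DMSO replicate 1, 0.15 without EV-deficient DMSO replicate 1), under paclitaxel (-1.24 to 0.66, the highest without EV-proficient paclitaxel replicate 1, 0.07 without EV-deficient paclitaxel replicate 3) and in the interaction (-1.03 to 0.87, with 0.24 without EV-deficient DMSO replicate 2, 0.87 without EV-proficient paclitaxel replicate 1, 0.28 without EV-deficient paclitaxel replicate 3). Upper-quartile scaling moved the median of all tested genes from 0.07 to 0.19 in the averaged comparison and from 0.07 to 0.26 in the EV-deficient one. Between labels under DMSO, 53.9% of all called genes were higher, 64.1% without the filter, and 43.1% to 45.0% without 1 paclitaxel library. Depth limits Epgn and Erbb4, at 24 reads or fewer in each library. The 1 CPM filter left no value for Epgn.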

Other observations

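The response element in the Areg window was looked for in other genes after that window had been seen, as a description with no test. Of the 11736 tested genes with a promoter in the RefSeq table, 343 hold TGACGTCA in the 250 bases upstream. Under paclitaxel, averaged over labels, 103 of them (30.0%) were called higher and 151 (44.0%) lower, with a median log2 fold change of -0.11. Over all 11736 genes 38.7% were called higher and 36.2% lower, with a median of 0.04. Areg is 1 of the 151.

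Of the keratins in the epithelial list, Krt8, Krt18 and Krt14 were expressed, and their levels are given as values. Krt14, an intermediate filament gene of basal keratinocytes, had group means of 191.1 CPM in EV-proficient DMSO, 681.2 in EV-deficient DMSO, 190.8 in EV-proficient paclitaxel and 80.0 in EV-deficient paclitaxel libraries, and the EV-proficient groups overlapped. Krt8, a keratin of simple epithelium, had 2196 and 1812 CPM in the DMSO groups and 894.6 and 970.2 CPM in the paclitaxel groups, in the same order of labels, and the paclitaxel groups overlapped. Krt18, its partner, had 1274 and 1478 CPM in the DMSO groups and 1036 and 717.1 CPM in the paclitaxel groups, in that order.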
